A study of Mus musculus with 8 samples.

Results

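The tricarboxylic acid (TCA) cycle and glutamine metabolism were followed through 29 genes, chosen by symbol from a hand-made list of cycle enzymes, their cytosolic counterparts and enzymes or transporters of glutamine, glutamate and aspartate. All 29 were found among the 55414 genes of the expression table, and 28 of them were among the 13526 genes expressed highly enough to be tested, with Ogdhl left out. The RNA-seq data comprised 8 libraries of B16F10, a mouse melanoma cell line, in 4 groups of 2 libraries, and every group was cultured for 24 h. WT cells and CypD KO cells, in which Ppif was targeted with CRISPR/Cas9 and transfected clones were selected with puromycin, were kept at 21% oxygen. Control cells, stably carrying the empty pcDNA vector, and cells labelled CypD OE, stably carrying Ppif in that vector, were kept at 1% oxygen after selection of G418-resistant clones. How many clones stand behind each line, and whether the 2 libraries of a group came from separate cultures, was not given in the sources used here, so the p-values measure the spread between these libraries, which may be technical. Cyclophilin D (CypD), the product of Ppif, is a chaperone of the mitochondrial matrix that promotes opening of the permeability transition pore, and the study asked what its loss or gain does in melanoma cells.

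The TCA cycle oxidises acetyl groups to carbon dioxide in the mitochondrial matrix and passes electrons to the respiratory chain. Its intermediates are withdrawn for synthesis, citrate for lipids and oxaloacetate for aspartate, and are refilled from pyruvate or from glutamine, which enters as 2-oxoglutarate. Tumour cells are known for drawing heavily on glutamine, and 2-oxoglutarate, succinate and fumarate bear on the oxygen-dependent enzymes that mark HIF1α for degradation. Several steps have paired isoenzymes, one in the cytosol and one in the matrix, which shuttle reducing power between both compartments.

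Before the members, the labels were checked against Ppif itself (ENSMUSG00000021868, chromosome 14, 25694522 to 25707332, GRCm39). The WT libraries had 50.68 and 49.99 TPM (a transcript level scaled for transcript length and for the total of the library) of Ppif, and the CypD KO libraries 10.44 and 12.11 TPM, a fall by 2.07 on the log2 scale (SE 0.07, limma adjusted p = 3.81e-06). In the Control libraries it was 44.59 and 42.25 TPM, and in the libraries labelled CypD OE 50.29 and 49.28 TPM, a log2 difference of 0.19 (SE 0.07) that did not pass the threshold (limma adjusted p = 0.0794). The level of Ppif thus separated CypD KO from WT, while the mean in CypD OE was 1.15 times that in Control. The paper reports that western blots showed CypD overexpression in the selected clones, a protein level that RNA does not measure. Whether RNA made from the vector was counted as mouse Ppif was not tested. CypD OE therefore stands below for the label of these libraries. All 8 melanocyte markers reached 1 TPM, whereas Dcn (fibroblasts), Cd3e and Adgre1 (immune cells), Cdh5 (endothelium) and all 4 epithelial markers were listed at 0 in every library. The other endothelial markers were not all at 0, with Pecam1 at 0.03 to 1.18 TPM, Kdr at most 0.03 and Tek at most 0.06 TPM. The 4 endothelial markers summed to 0.15 to 0.45 TPM in WT, 0.6 to 1.07 in CypD KO, 0.39 to 1.2 in Control and 0.03 to 0.21 in CypD OE. The melanocyte markers summed to 17875 to 17877 TPM in WT, 16897 to 16918 in CypD KO, 23604 to 24202 in Control and 16283 to 16301 in CypD OE. Of these 8, 5 were lower and 2 higher (Tyr and Gpnmb) in CypD KO than in WT, 5 lower and 1 higher (Sox10) in CypD OE than in Control, and 7 higher in Control than in WT. Of all genes tested, 18.4% were lower and 30.1% higher in CypD KO, 18.3% lower and 19% higher in CypD OE, and 12.1% higher in Control. Among genes with a mean of at least 30 TPM these shares were 31.9% and 30.1%, 26.3% and 24.9%, and 17.3%. The summed level of 6 fibroblast markers, 3 of which reached 1 TPM, was 34.2 to 37.2 TPM in CypD KO, 15.6 to 17.7 in WT, 19 to 21 in Control and 9.23 to 11.3 in CypD OE. Within it Postn was 31.22 to 34.77 TPM in CypD KO and 8.04 to 8.07 TPM in WT, whereas Col1a2 was 1.09 to 2.17 TPM in CypD KO and 6.87 to 9.03 TPM in WT. Of the immune markers given here, Ptprc was at most 0.02 TPM, and Cd68, a lysosomal protein abundant in macrophages, was 21.85 and 23.33 TPM in CypD KO, 3.75 and 3.45 TPM in WT, 4.81 and 4.20 TPM in Control and 1.13 and 1.91 TPM in CypD OE. The part of these shifts in the results was not tested, and in bulk RNA fewer cells with a transcript and less of it per cell cannot be told apart. Depth was even, since 1 fragment on 1000 effective bases was worth 0.082 to 0.0977 TPM in the 8 libraries.

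Sequence upstream of the transcription start is shown for 3 genes that changed in both CypD comparisons, described below: Idh2 and Glul, which were lower in both, and Got1, which changed in opposite directions. In the 250 bases before each RefSeq start, the letters ACGTG and GCGTG, the cores of hypoxia response elements, and CACGTG, the E-box, which contains ACGTG, were searched on both strands. The sequences were read 5′ to 3′ in the direction of the gene, with a match in capitals. For Idh2 and Got1 the match is shown with 12 bases on each side, and for Glul, which held no match, the whole window of 250 bases is shown.
Idh2 (GRCm39 chr7:79765155-79765183, minus strand): gctcctgccctgGCGTGgacccgccttct
Got1 (GRCm39 chr19:43513189-43513217, minus strand): cagcgattggaaCACGCtacgccaatcat
Glul (GRCm39 chr1:153775425-153775674, plus strand): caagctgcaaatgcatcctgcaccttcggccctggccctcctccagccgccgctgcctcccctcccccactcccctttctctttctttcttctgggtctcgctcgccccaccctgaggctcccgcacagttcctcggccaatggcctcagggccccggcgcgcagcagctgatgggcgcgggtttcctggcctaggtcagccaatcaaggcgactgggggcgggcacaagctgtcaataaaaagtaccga
Both short stretches lay upstream of the annotated protein-coding transcripts and within first exons of transcripts marked for nonsense-mediated decay. The single match of Idh2 began 73 bases before its RefSeq start. That of Got1, GCGTG read on the opposite strand, began 161 bases before the start. The Glul window lay outside the Glul gene model and overlapped transcripts of Teddm2 on the other strand. For the members as a whole, 24 of 29 had entries in the RefSeq table (Abat, Gpt, Idh3a, Me2 and Slc1a5 were the rest), with 32 windows of 250 bases. ACGTG or GCGTG was present in 22 of the 32 (68.8%), against 38.6% of all 32851 windows, and CACGTG in 4 windows (12.5%), those of Ogdh and Pcx, against 6.02%. The median GC content was 60.6% in the members' windows and 52.4% in all windows, and these letters are themselves rich in G and C. The matches are a description of the letters and carry no information on binding.

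In WT cells the cycle genes were abundant. Mdh2, mitochondrial malate dehydrogenase, was the highest at 394 TPM, above 97.5% of all genes tested, followed by Mdh1 at 260, Idh3a at 241 and Got2 at 224 TPM. The 22 highest members lay at or above the 37.6 TPM of Slc1a5, and the other 7, from Abat at 9.71 TPM down to Ogdhl at 0.275 TPM, were far below. The sum over all members was 3245 and 3242 TPM in WT, 2944 and 2945 TPM in CypD KO, 2911 and 2985 TPM in Control and 2736 and 2665 TPM in CypD OE. CypD KO was thus below WT, and CypD OE below Control, in every library.

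**Figure D1:**
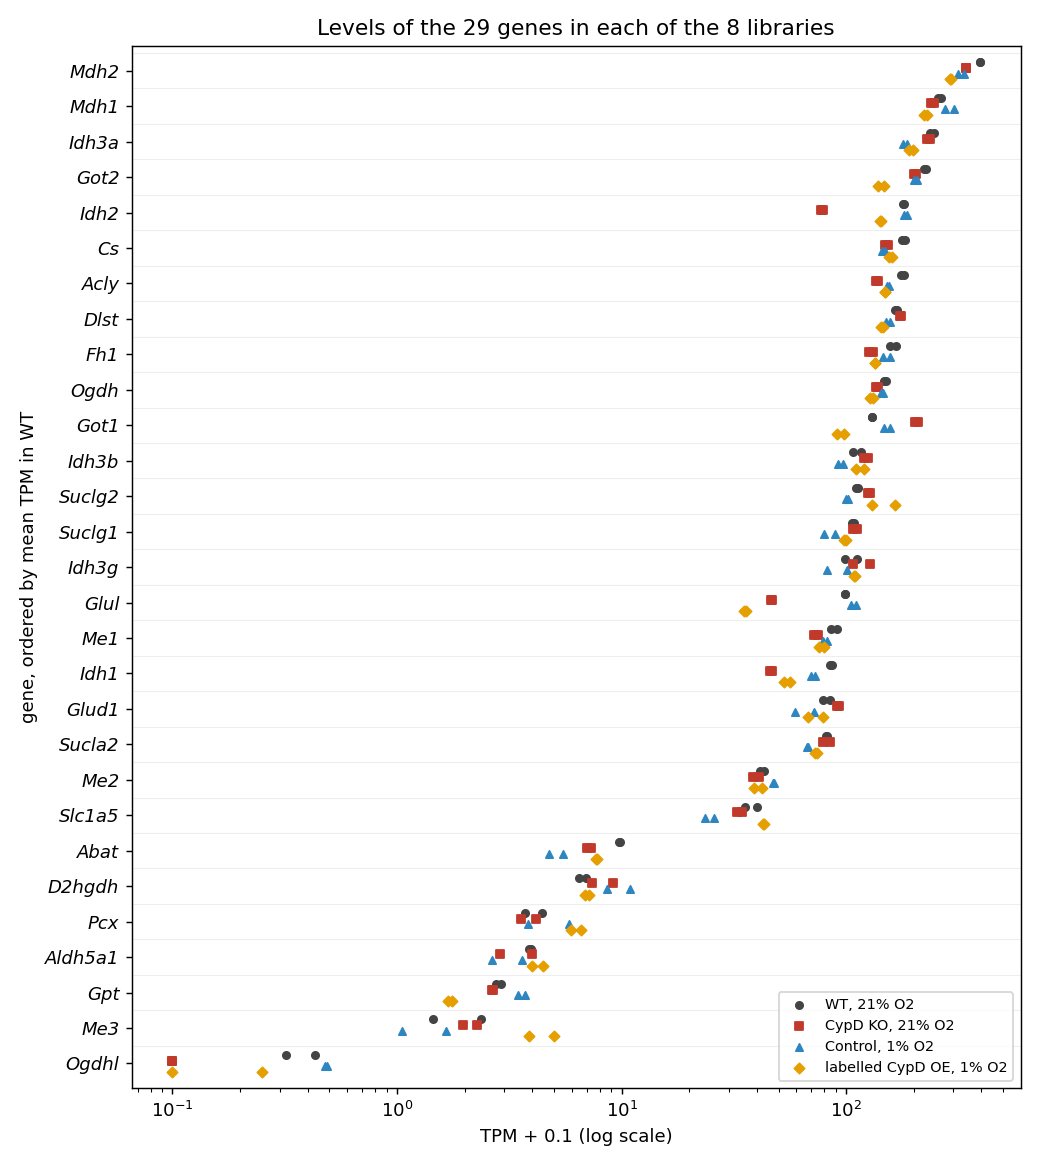
Level of each of the 29 members, as TPM + 0.1 on a log axis, with 1 point per library, colour and shape for the 4 groups, and members ordered by their mean in WT. Most members lie close together in the 4 groups, while Glul lies at 34.93 to 46.58 TPM in CypD KO and CypD OE and at 98.42 to 110.43 TPM in WT and Control.

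At 21% oxygen, more members were lower than higher in CypD KO. CypD KO cells also differed from WT cells in transfection and clone selection, whose effects cannot be told apart from that of the knockout. Of the 28 members tested, 11 fell in CypD KO against WT (39.3%) and 1 rose, whereas 18.4% of all genes tested fell and 30.1% rose. Among the 4963 genes with a mean of at least 30 TPM, where 22 members lie, 31.9% fell and 30.1% rose, against 10 and 1 of the 22 members. Idh2, Glul and Idh1 fell most and Got1 was the member that rose. The median log2 difference of the members was -0.09, with a range of -1.19 to 0.65, beside 0.089 for all genes tested. The libraries were also rescaled by median-of-ratios size factors. The split over all genes then moved from 4066 higher and 2486 lower to 3290 higher and 3364 lower. With that scaling 15 members were lower, with Idh3a, Mdh1, Me2 and Slc1a5 added, and 1 was higher.

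At 1% oxygen, 11 of the 28 members were lower and 6 higher in CypD OE than in Control, against 18.3% and 19% of all genes tested. Among genes with a mean of at least 30 TPM, 26.3% were lower and 24.9% higher, and of the 22 members there 10 were lower and 4 higher. Glul fell most, and Me3, Slc1a5, Suclg2 and Abat rose most. The median log2 difference of the members was -0.05 and of all genes 0.002, while the members ranged from -1.58 to 1.25. A difference beyond 0.5 on the log2 scale in either direction was present in 8 members here and in 4 in the knockout comparison, against 21.7% and 29.5% of all genes tested.

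The CypD KO and CypD OE comparisons share no library, but both came from 1 fit in which all groups share each gene's estimate of spread. In both, 7 members were lower, namely Fh1, Glul, Got2, Idh1, Idh2, Mdh2 and Ogdh, against 4% of all genes tested (7.7% of those with a mean of at least 30 TPM). Separate fits on the 4 libraries compared gave 6 members lower in both, and median-of-ratios rescaling gave 9. No member was higher in both, against 6.57% of all genes. Got1 was the 1 member higher in CypD KO and lower in CypD OE (background 7.61%), and Abat the 1 member lower in CypD KO and higher in CypD OE (background 5.13%). The number lower in both was 5 to 6 when any single library was left out.

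**Figure D2:**
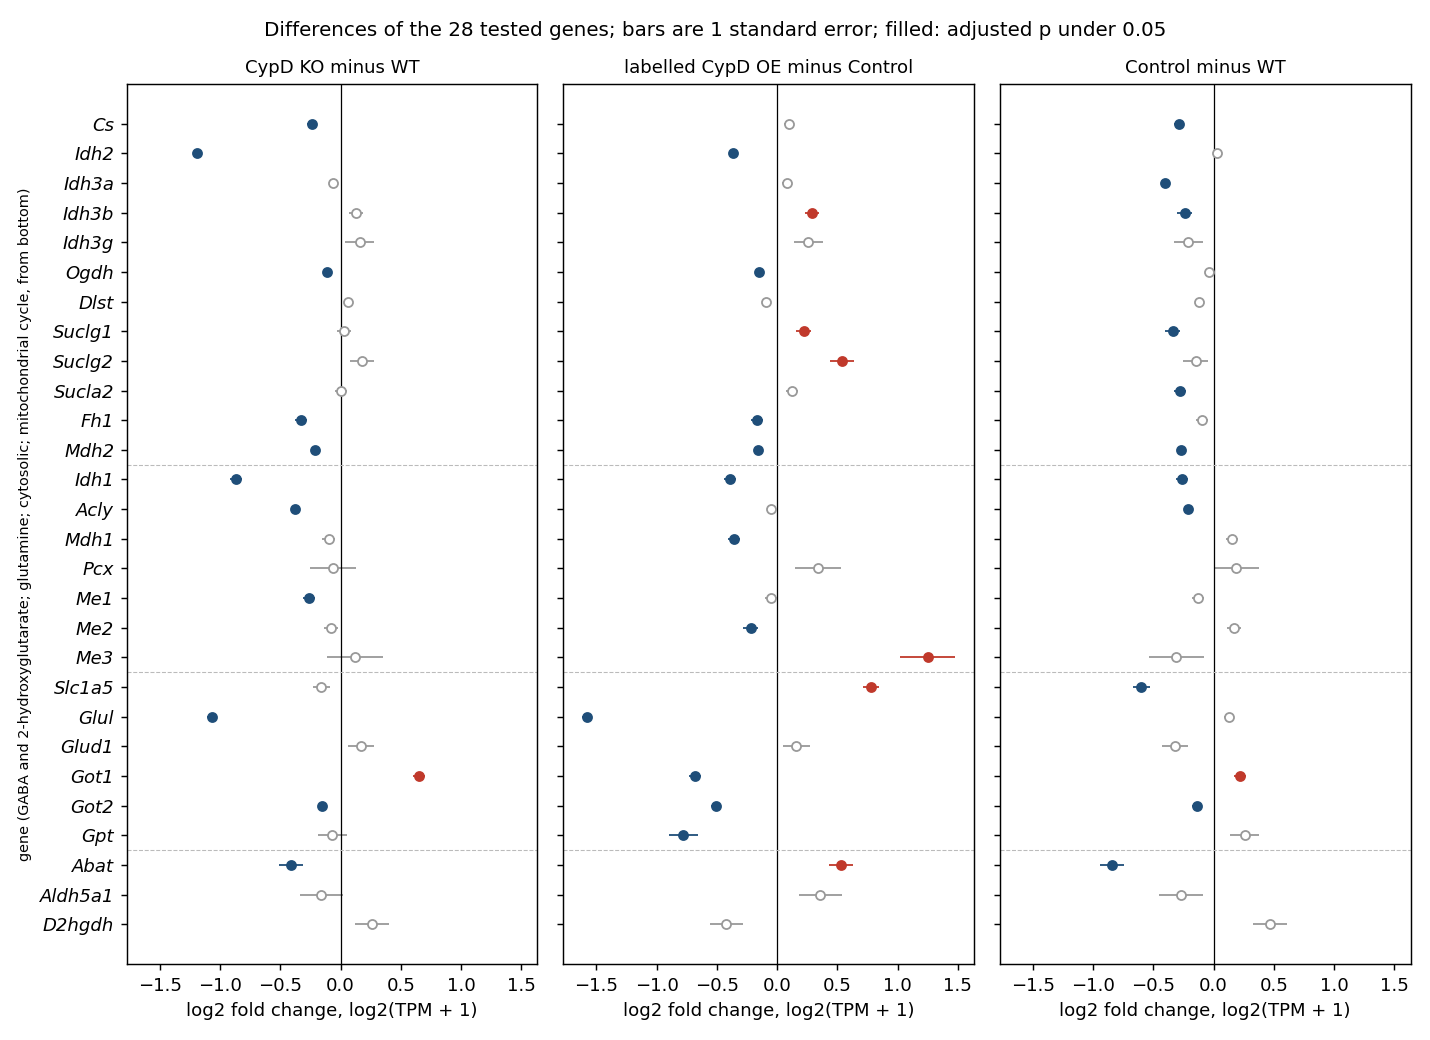
Log2 fold change of each of the 28 tested members on the log2(TPM + 1) scale (points) with 1 standard error (bars), for CypD KO against WT, CypD OE against Control and Control against WT, with members grouped by role. Filled points passed the threshold, red for higher and blue for lower, and Got1 lies at 0.65 in the first panel and at -0.68 in the second.

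Among the enzymes from oxaloacetate to succinyl-CoA, the NADP-dependent isocitrate dehydrogenases, Idh2 and, outside the matrix, Idh1, were lower in both CypD comparisons. Idh2 (ENSMUSG00000030541, chromosome 7, 79741431 to 79765535), the NADP-dependent enzyme of the matrix, had 178.35 and 180.56 TPM in WT, 77.16 and 78.50 TPM in CypD KO, 180.40 and 186.82 TPM in Control and 143.06 and 140.71 TPM in CypD OE. The CypD KO libraries were the lowest and those of CypD OE intermediate, with no overlap of either with its reference group. Its log2 difference was -1.19 in CypD KO (SE 0.03, limma adjusted p = 1.56e-06) and -0.37 in CypD OE (SE 0.03, limma adjusted p = 2.79e-04). Idh1 (ENSMUSG00000025950, chromosome 1, 65196781 to 65225721), its cytosolic and peroxisomal counterpart, had 84.32 and 86.77 TPM in WT, 45.60 and 46.84 TPM in CypD KO, 69.71 and 72.74 TPM in Control and 52.58 and 55.86 TPM in CypD OE. It fell to 54.0% of the WT mean in CypD KO (log2 difference -0.87, SE 0.05, limma adjusted p = 2.13e-05) and to 76.1% of the Control mean in CypD OE (-0.39, SE 0.05, limma adjusted p = 0.00113). Idh1 and Idh2 together summed to 263 and 267 TPM in WT and to 123 and 125 TPM in CypD KO.

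The NAD-dependent enzyme of the cycle is built of the catalytic Idh3a and the subunits Idh3b and Idh3g. On unscaled TPM none of these passed the threshold in CypD KO. After median-of-ratios rescaling Idh3a was lower there (-0.156, limma adjusted p = 0.0153), and Idh3b and Idh3g did not pass. Idh3a (chromosome 9, 54493575 to 54514730) was 246.90 and 235.71 TPM in WT and 228.03 and 235.99 TPM in CypD KO, overlapping ranges with a log2 difference of -0.06 (SE 0.04, limma adjusted p = 0.293). In Control it was 179.68 and 186.18 TPM and in CypD OE 197.83 and 189.64 TPM (0.08, SE 0.04, limma adjusted p = 0.157). Idh3b was 115.86 and 107.07 TPM in WT, 120.07 and 124.74 TPM in CypD KO, 96.62 and 91.97 TPM in Control and 110.74 and 119.72 TPM in CypD OE. It rose in CypD OE by 0.29 on the log2 scale (SE 0.06, limma adjusted p = 0.00862), and its difference of 0.13 in CypD KO did not pass (limma adjusted p = 0.0971). Idh3g, at 82.00 to 128.06 TPM, varied by more between its 2 libraries than the other subunits in WT, CypD KO and Control, with log2 differences of 0.16 and 0.26 (SE 0.12 for each, limma adjusted p = 0.331 and 0.141). The 3 subunits summed to 462 and 455 TPM in WT, 476 and 468 in CypD KO, 377 and 360 in Control and 418 and 418 in CypD OE. The difference between the NADP-dependent and the NAD-dependent genes was itself not tested.

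Citrate synthase (Cs, chromosome 10, 128172837 to 128198363), which opens the cycle, was 176.40 and 182.10 TPM in WT and 154.06 and 149.41 TPM in CypD KO, a fall by 0.24 on the log2 scale (SE 0.04, limma adjusted p = 0.00179). It was 144.20 and 149.16 TPM in Control and 159.30 and 155.26 TPM in CypD OE, where the difference of 0.10 did not pass (SE 0.04, limma adjusted p = 0.071). Ogdh, which carries the first activity of the 2-oxoglutarate dehydrogenase complex, was 149.86 and 147.55 TPM in WT, 138.52 and 136.04 TPM in CypD KO, 143.11 and 145.53 TPM in Control and 131.81 and 127.73 TPM in CypD OE. Both differences were small, -0.11 in CypD KO (SE 0.03, limma adjusted p = 0.0258) and -0.15 in CypD OE (SE 0.03, limma adjusted p = 0.011). Dlst, the succinyltransferase of the same complex, was 168.37 and 165.16 TPM in WT and 173.90 and 174.95 TPM in CypD KO, and 157.11 and 150.48 TPM in Control and 142.62 and 146.04 TPM in CypD OE. Its log2 differences of 0.06 and -0.09 (SE 0.03 for each) did not pass (limma adjusted p = 0.166 and 0.0798).

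Ogdhl, a related enzyme of 2-oxoglutarate oxidation, was below the level tested. It was 0.33 and 0.22 TPM in WT, approximately 17.6 and 10.9 fragments, and was listed at 0 in both CypD KO libraries, where 3 fragments would be 0.0536 and 0.0572 TPM. Control libraries had 0.39 and 0.38 TPM, and the CypD OE libraries 0 and 0.15 TPM. At these few fragments no fold is given, and the fragment numbers are estimates that cover counting error only.

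In the segment from succinyl-CoA to oxaloacetate, 2 of 5 members fell in CypD KO (Fh1 and Mdh2), and in CypD OE these were lower and Suclg1 and Suclg2 higher. Of all genes tested 18.4% fell in CypD KO (31.9% of those with a mean of at least 30 TPM), and in CypD OE 18.3% were lower and 19% higher. Suclg1, the shared alpha subunit, was 105.80 and 108.73 TPM in WT, 107.17 and 111.35 TPM in CypD KO, 79.49 and 89.40 TPM in Control and 99.54 and 97.68 TPM in CypD OE. It was higher in CypD OE than in Control by 0.22 (log2, SE 0.06, limma adjusted p = 0.0231) and differed by 0.03 in CypD KO (limma adjusted p = 0.742). Suclg2, the GTP-specific beta subunit, was 109.96 and 112.41 TPM in WT, 126.93 and 125.53 TPM in CypD KO and 101.43 and 99.29 TPM in Control. In CypD OE its values of 164.41 and 129.83 TPM lay apart from each other, both above Control (0.54, SE 0.10, limma adjusted p = 0.0055), while the difference of 0.18 in CypD KO did not pass (limma adjusted p = 0.169). Sucla2, the ATP-specific beta subunit, was 80.80 and 82.16 TPM in WT, 78.44 and 84.33 TPM in CypD KO, 67.46 and 66.76 TPM in Control and 74.01 and 72.43 TPM in CypD OE. Neither of its log2 differences, 0.00 and 0.12 (SE 0.05 for each), passed (limma adjusted p = 0.972 and 0.0719). The ratio of Suclg2 to Sucla2 was 1.36 and 1.37 in WT, 1.62 and 1.49 in CypD KO, 1.5 and 1.49 in Control and 2.22 and 1.79 in CypD OE.

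Fumarate hydratase (Fh1, chromosome 1, 175425290 to 175453205), which turns fumarate into malate, was 167.22 and 156.78 TPM in WT and 126.05 and 131.42 TPM in CypD KO, a fall by 0.33 on the log2 scale (SE 0.05, limma adjusted p = 0.00152). In Control it was 156.12 and 146.30 TPM and in CypD OE 134.04 and 134.72 TPM (-0.17, SE 0.05, limma adjusted p = 0.0324). Mdh2 (chromosome 5, 135807292 to 135820882) was 394.60 and 392.49 TPM in WT, 340.17 and 340.37 TPM in CypD KO, 315.68 and 335.29 TPM in Control and 289.29 and 291.72 TPM in CypD OE. WT held the highest and CypD OE the lowest Mdh2 levels, and the log2 differences were -0.21 in CypD KO (SE 0.03, limma adjusted p = 0.00221) and -0.16 in CypD OE (SE 0.03, limma adjusted p = 0.00904).

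In the cytosolic and anaplerotic arm, 3 of 7 members fell in CypD KO (Idh1, Acly and Me1), and none rose, against 18.4% and 30.1% of all genes tested (31.9% and 30.1% of those with a mean of at least 30 TPM). In CypD OE 3 were lower (Idh1, Mdh1 and Me2) and 1 higher (Me3). The shares there were 18.3% and 19% of all genes tested (26.3% and 24.9% of those with a mean of at least 30 TPM). Acly (chromosome 11, 100367165 to 100440756), the ATP citrate lyase that makes cytosolic acetyl-CoA, was 180.08 and 175.94 TPM in WT and 137.92 and 135.40 TPM in CypD KO (log2 difference -0.38, SE 0.03, limma adjusted p = 1.05e-04). At 1% oxygen it was 152.48 and 154.85 TPM in Control and 149.26 and 148.08 TPM in CypD OE, a difference of -0.05 that did not pass (SE 0.03, limma adjusted p = 0.275). Mdh1, cytosolic malate dehydrogenase, was 256.46 and 263.53 TPM in WT, 239.38 and 246.86 TPM in CypD KO, 275.69 and 300.91 TPM in Control and 228.51 and 221.23 TPM in CypD OE. It fell by 0.36 in CypD OE (SE 0.05, limma adjusted p = 0.00145), and its difference of -0.10 in CypD KO did not pass (limma adjusted p = 0.133).

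Me1, the cytosolic malic enzyme that yields NADPH, was 85.53 and 91.07 TPM in WT and 74.73 and 71.93 TPM in CypD KO (-0.26, SE 0.05, limma adjusted p = 0.00499). Its levels in Control, 81.82 and 79.01 TPM, overlapped those in CypD OE, 79.95 and 75.52 TPM (-0.05, limma adjusted p = 0.499). The mitochondrial Me2 was 43.15 and 41.03 TPM in WT, 41.01 and 38.38 TPM in CypD KO, 47.25 and 47.37 TPM in Control and 41.93 and 38.82 TPM in CypD OE. It was lower in CypD OE by 0.22 (SE 0.06, limma adjusted p = 0.0243) and differed by -0.08 in CypD KO (limma adjusted p = 0.294). Me3, a second mitochondrial malic enzyme, was scarce, at 1.34 and 2.27 TPM in WT, 1.87 and 2.16 TPM in CypD KO, 1.55 and 0.95 TPM in Control and 4.91 and 3.77 TPM in CypD OE. It had the largest rise of the members in CypD OE, to 347% of the Control mean (1.25 on the log2 scale of TPM + 1, SE 0.23, limma adjusted p = 0.00555), and the CypD OE levels rest on approximately 258 and 202 fragments. Pcx, pyruvate carboxylase, which makes oxaloacetate from pyruvate, stayed between 3.48 and 6.51 TPM, with differences of -0.06 and 0.34 (SE 0.19 for each) that did not pass (limma adjusted p = 0.81 and 0.198).

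Among the genes of glutamine, glutamate and aspartate, Glul (ENSMUSG00000026473, chromosome 1, 153775690 to 153785469) is the glutamine synthetase. On the log2(TPM + 1) scale, Glul had the largest change of the tested members in CypD OE. It had 98.42 and 98.83 TPM in WT, 46.58 and 46.15 TPM in CypD KO, 105.44 and 110.43 TPM in Control and 35.85 and 34.93 TPM in CypD OE. All 4 libraries of the CypD KO and CypD OE groups lay below all 4 of WT and Control. CypD KO held 47.0% of the WT mean (log2 difference -1.07, SE 0.04, limma adjusted p = 5.04e-06) and CypD OE 32.8% of the Control mean (-1.58, SE 0.04, limma adjusted p = 1.52e-06).

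The aspartate aminotransferases exchange amino groups between glutamate and oxaloacetate, Got1 in the cytosol and Got2 in the matrix. Got1 (ENSMUSG00000025190, chromosome 19, 43488188 to 43513674) was 130.74 and 130.06 TPM in WT, 201.71 and 208.94 TPM in CypD KO, 146.73 and 157.26 TPM in Control and 91.19 and 97.44 TPM in CypD OE. CypD KO had the highest and CypD OE the lowest levels, and no group overlapped another. The log2 difference was 0.65 in CypD KO (SE 0.05, limma adjusted p = 7.64e-05) and -0.68 in CypD OE (SE 0.05, limma adjusted p = 1.09e-04). Got2 (chromosome 8, 96590760 to 96615190) was 226.71 and 221.53 TPM in WT, 203.74 and 200.29 TPM in CypD KO, 200.15 and 207.09 TPM in Control and 147.49 and 138.92 TPM in CypD OE. It was lower in both comparisons, at -0.15 in CypD KO (SE 0.04, limma adjusted p = 0.0184) and at -0.51 in CypD OE (SE 0.04, limma adjusted p = 1.48e-04). The ratio of Got1 to Got2 was therefore 0.577 and 0.587 in WT and 0.99 and 1.04 in CypD KO, and 0.733 and 0.759 in Control and 0.618 and 0.701 in CypD OE.

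Slc1a5, a glutamine transporter of the plasma membrane (chromosome 7, 16515265 to 16532731), was 39.81 and 35.46 TPM in WT, 34.43 and 32.52 TPM in CypD KO, 23.39 and 25.68 TPM in Control and 42.66 and 42.77 TPM in CypD OE. It was higher in CypD OE than in Control (0.78, SE 0.07, limma adjusted p = 3.76e-04), and the difference of -0.16 in CypD KO did not pass (limma adjusted p = 0.117). Glud1, glutamate dehydrogenase, which yields 2-oxoglutarate from glutamate, was 78.74 and 84.89 TPM in WT, 91.31 and 92.85 TPM in CypD KO, 59.21 and 71.99 TPM in Control and 79.13 and 67.50 TPM in CypD OE. Its log2 differences of 0.17 and 0.16 (SE 0.11 for each) did not pass (limma adjusted p = 0.236 and 0.288). Gpt, the alanine aminotransferase, was low, at 2.81 and 2.67 TPM in WT, 2.58 and 2.55 TPM in CypD KO, 3.36 and 3.61 TPM in Control and 1.59 and 1.65 TPM in CypD OE. It fell in CypD OE by 0.78 on the log2(TPM + 1) scale (SE 0.12, limma adjusted p = 0.00284), with 31.5 to 66.1 estimated fragments in the 8 libraries, and differed by -0.07 in CypD KO (limma adjusted p = 0.669).

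**Figure D3:**
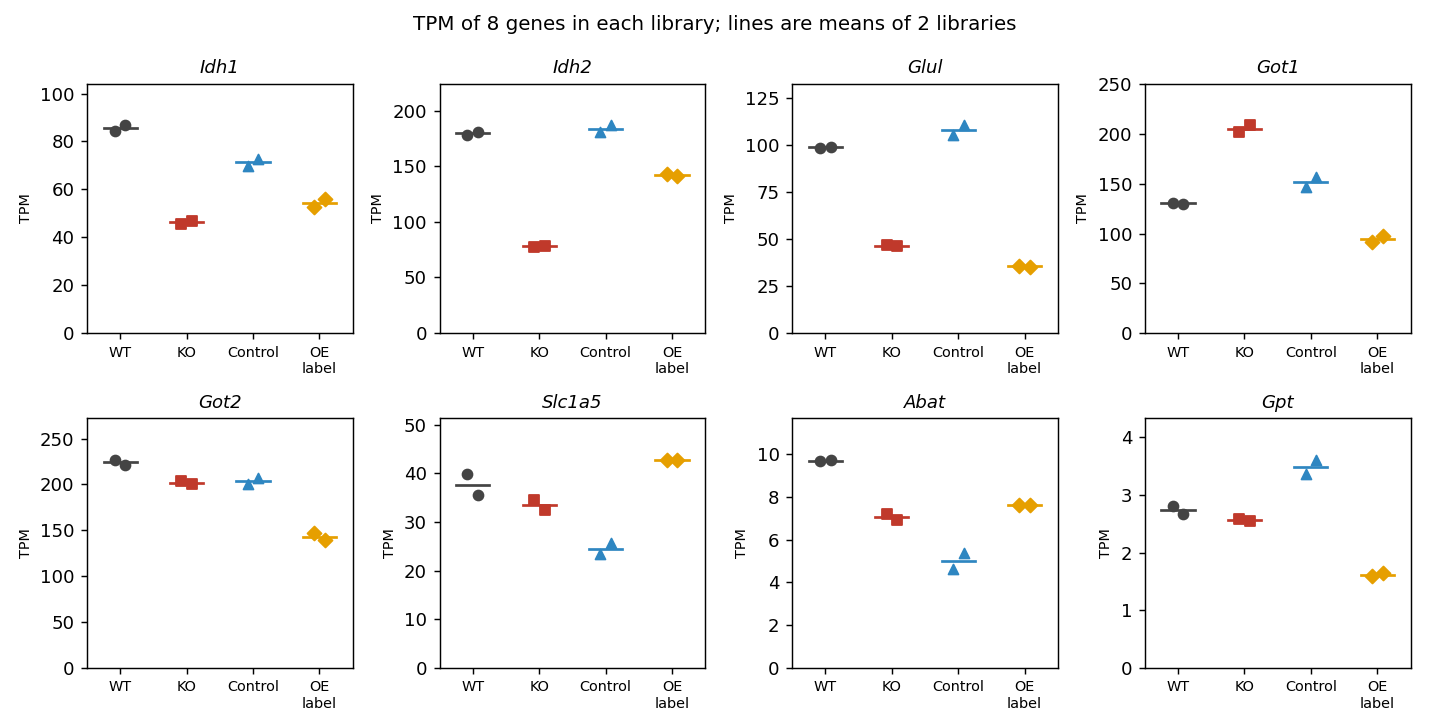
TPM of 8 members, Idh1, Idh2, Glul, Got1, Got2, Slc1a5, Abat and Gpt, in the 4 groups, with 1 point per library and a line at the mean of the 2 libraries, each axis starting at 0. Got1 is highest in CypD KO, at 201.71 and 208.94 TPM, Glul is lowest in CypD OE, at 35.85 and 34.93 TPM, and Slc1a5 is lowest in Control, at 23.39 and 25.68 TPM.

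Of the GABA shunt, which leads glutamate carbon back to succinate, Abat (chromosome 16, 8331233 to 8439996), the GABA transaminase, was 9.68 and 9.74 TPM in WT, 7.20 and 6.92 TPM in CypD KO, 4.63 and 5.36 TPM in Control and 7.61 and 7.64 TPM in CypD OE. It was lower in CypD KO (-0.41, SE 0.10, limma adjusted p = 0.0115) and higher in CypD OE (0.53, SE 0.10, limma adjusted p = 0.00557). Aldh5a1, the succinic semialdehyde dehydrogenase that completes the shunt, ranged from 2.55 to 4.38 TPM, with differences of -0.16 and 0.36 (SE 0.18 for each, limma adjusted p = 0.483 and 0.164). D2hgdh, which oxidises D-2-hydroxyglutarate, was 6.39 and 6.86 TPM in WT, 9.05 and 7.31 TPM in CypD KO, 8.53 and 10.76 TPM in Control and 7.06 and 6.76 TPM in CypD OE. Its differences of 0.26 and -0.42 (SE 0.14 for each) missed the threshold (limma adjusted p = 0.167 and 0.0537).

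Some of the smaller calls were lost when 1 library was left out. In the knockout comparison, Ogdh missed the threshold without any one of the 4 libraries of WT and CypD KO (limma adjusted p from 0.0594 to 0.107). Got2 missed it without WT library 1 (0.0886), CypD KO library 1 (0.0557) or CypD KO library 2 (0.0865), and Abat without CypD KO library 2 (limma adjusted p = 0.0591). In CypD OE against Control, Fh1 and Suclg1 missed it without Control library 1 (limma adjusted p = 0.152 and 0.0812), CypD OE library 1 (0.115 and 0.101) or CypD OE library 2 (0.105 and 0.0744). Both also missed it with no filter on low genes (limma adjusted p = 0.0634 and 0.0506) and in a fit on the 4 libraries compared (0.0526 and 0.0748). Me2 missed it without Control library 1 (0.0852), Control library 2 (0.0894) or CypD OE library 2 (limma adjusted p = 0.123). Ogdh and Idh3b missed it without Control library 2 (limma adjusted p = 0.0565 and 0.0503) or CypD OE library 2 (0.0627 and 0.0517). Pcx and D2hgdh passed it without Control library 1 (limma adjusted p = 0.0465 and 0.0378).

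Control cells at 1% oxygen were also set against WT cells at 21% oxygen. These groups differ in oxygen, vector and clone selection, whose effects cannot be told apart, and the comparison shares its libraries with both comparisons above. Of the 28 members tested, 11 were lower in Control and 1 higher, while 12.1% of all genes tested were lower and 12.1% higher. The lower ones were Abat, Acly, Cs, Got2, Idh1, Idh3a, Idh3b, Mdh2, Slc1a5, Sucla2 and Suclg1, and the higher one was Got1. Of the 22 members with a mean of at least 30 TPM, 10 were lower and 1 higher, against 21.2% and 17.3% of such genes.

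Abat had the largest of these differences, -0.84 on the log2 scale (SE 0.10, limma adjusted p = 0.00157), followed by Slc1a5 at -0.60 (SE 0.07, limma adjusted p = 0.00228) and Idh3a at -0.40 (SE 0.04, limma adjusted p = 9.52e-04). Suclg1, Cs, Sucla2, Mdh2, Idh1, Idh3b, Acly and Got2 fell by 0.34 to 0.14 on the log2 scale. Got1 was higher by 0.22 (SE 0.05, limma adjusted p = 0.0198). Glul, at 0.13 (SE 0.04, limma adjusted p = 0.0636), and Idh2, at 0.03 (SE 0.03, limma adjusted p = 0.521), both lower in each CypD comparison, did not pass here. The ratio of Mdh1 to Mdh2 was 0.65 and 0.671 in WT and 0.873 and 0.897 in Control, while that of Idh1 to Idh2 was 0.473 and 0.481 in WT and 0.386 and 0.389 in Control. Got1 missed the threshold without WT library 1 (limma adjusted p = 0.0752), WT library 2 (0.0831) or Control library 2 (0.0936), and Idh1 without WT library 2 (0.0557) or Control library 1 (0.0562). Idh3b missed it without WT library 1 (limma adjusted p = 0.123), Control library 1 (0.0586) or Control library 2 (0.122), and Got2 without any one of the 4 (0.0801 to 0.177). Got2 also missed it with the replicate number as a block (limma adjusted p = 0.0647), with no filter (0.08) and in a fit on the 4 libraries compared (0.0718). Idh3b missed it with no filter (limma adjusted p = 0.061), and Idh3b and Got1 in that 4-library fit (0.0674 and 0.0534). Mdh1 passed without Control library 1 (limma adjusted p = 0.027), Glud1 without Control library 2 (0.0361) and D2hgdh without Control library 1 (0.0454).

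Around the members, 69 other genes of these pathways were in the table and 56 were tested. In CypD KO 16 of the 56 were higher and 16 lower than in WT, and in CypD OE 22 were higher and 11 lower than in Control. Of all genes tested, 30.1% were higher and 18.4% lower in CypD KO, and 19% higher and 18.3% lower in CypD OE, which is the background for the counts of each list that follow. Of the 9 remaining cycle enzymes, which include aconitase and succinate dehydrogenase, 2 were higher and 2 lower in CypD KO, and 1 higher and 2 lower in CypD OE. The 4 succinate dehydrogenase assembly factors gave 2 higher and 0 lower in CypD KO and 0 higher and 2 lower in CypD OE. Of 8 tested glutaminases and transporters of glutamine or glutamate, 2 were higher and 2 lower in CypD KO, and 4 higher and 2 lower in CypD OE. Of 10 glutamine amidotransferases, 3 were higher and 4 lower in CypD KO, and 6 higher and 1 lower in CypD OE. Of 13 tested enzymes that make or use glutamate, 3 were higher and 5 lower in CypD KO, and 7 higher and 1 lower in CypD OE. The 6 tested mitochondrial carriers counted 2 higher and 2 lower in CypD KO and 2 higher and 0 lower in CypD OE, and the 6 tested genes of side reactions 2 higher and 1 lower in CypD KO and 2 higher and 3 lower in CypD OE.

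Of these genes, 6 passed the threshold with a log2 difference of at least 1, up or down, in a CypD comparison, 3 in each, while 9.88% of all genes tested in CypD KO and 5.54% in CypD OE lay beyond 1, past the threshold or not. Slc7a11, which exports glutamate in exchange for cystine, was 1.68 and 1.40 TPM in Control and 31.04 and 28.83 TPM in CypD OE (log2 difference 3.61, limma adjusted p = 1.73e-06), beside 8.82 and 9.69 TPM in WT and 10.64 and 10.96 TPM in CypD KO. Asns, asparagine synthetase, which spends glutamine and aspartate, rose in CypD OE from 70.59 and 77.07 TPM to 181.42 and 184.63 TPM (1.3, limma adjusted p = 8.26e-06). Gfpt2, which spends glutamine in hexosamine synthesis, fell in CypD KO from 4.34 and 4.34 TPM to 0.66 and 1.10 TPM (-1.52, limma adjusted p = 4.11e-04).

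Bcat1, the cytosolic branched-chain aminotransferase, which forms glutamate from 2-oxoglutarate, fell in CypD KO from 93.06 and 84.22 TPM to 43.17 and 43.75 TPM (-1.01, limma adjusted p = 2.7e-05). Adhfe1, a mitochondrial transhydrogenase that can form D-2-hydroxyglutarate, fell in CypD KO from 14.75 and 14.58 TPM to 6.31 and 6.05 TPM (-1.13, limma adjusted p = 8.2e-05). Ldha, which reduces pyruvate to lactate, fell in CypD OE from 3705.58 and 3852.68 TPM to 947.53 and 895.14 TPM (-2.04, limma adjusted p = 4.57e-07), beside 1277.07 and 1235.50 TPM in WT and 2215.16 and 2166.67 TPM in CypD KO.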

How the data were processed

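RNA-seq was performed on 8 libraries of cultured B16F10 cells, 2 for each of 4 groups, which were assigned from the sample labels. The deposited values are TPM per Ensembl gene on GRCm39, which the authors made from ribosomal RNA-depleted, paired-end libraries. According to the submitters' processing notes, the tools were Cutadapt 3.4, STAR 2.7.8a, RSEM 1.3.1 and DESeq2 1.26.0. The study's own tests used read counts, whereas those reported here rest on TPM, in which a few abundant transcripts lower all other values and RSEM divides shared reads between genes. Of 55414 genes, 30708 were at 0 in every library, and 54749 were in the GENCODE annotation that gave positions.

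The 13526 genes that reached 1 TPM in 2 or more of the 8 libraries were transformed to log2(TPM + 1) and fitted in limma 3.58.1 under R 4.3.3 (trended empirical Bayes, 1 mean per group, all 8 libraries), so fold changes of low genes are understated. Tests were two-sided, with Benjamini-Hochberg adjustment over all genes tested and a threshold of 0.05. With 2 libraries on each side, exact permutation cannot give a p below 0.333 and was not used. The fit was tested on simulated data. Depth was estimated from values of up to 6 fragments in genes of 600 to 3000 bases, of which 83.5% to 86.4% came out whole within a tolerance of 0.15, where values without steps would give 30%. Between 17942 and 19692 genes were above 0 per library.

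The members and gene lists were chosen with earlier results of these data known. All members were described, and of the other pathway genes those past the threshold with a log2 change of at least 1 in a CypD comparison, at most 3 per list, were named. Upstream sequences came from the RefSeq table (GRCm38.p6) and were matched to unique positions in GRCm39. Alternatives were a pseudocount of 0.1, no filter, median-of-ratios scaling, a replicate block, fits on the 4 libraries compared, and leaving out each library. A further marker gene is not reported here.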

Additional observations from a re-analysis of the deposited data

How the results depend on the processing

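Of the 756 member values recomputed under alternatives, 369 belonged to calls past the threshold, of which 326 kept direction and call, 43 lost the call and 0 changed direction. Rescaling by median-of-ratios moved the members' median in CypD KO minus WT to -0.188 and turned Dlst to -0.035 and Suclg1 to -0.073, both not called; it shifted the median of all genes from 0.089 to 0.003. Fits on the 4 libraries compared gave 2 members higher in CypD KO, with Suclg2 added, and 0 higher in Control than WT, where 998 genes were higher and 983 lower against 1634 and 1635. With a pseudocount of 0.1, and with median-of-ratios, 2 members were higher in Control. Without a filter, which adds Ogdhl, the median for Control minus WT was -0.146. Leaving out each library gave medians of -0.128 to -0.072 in CypD KO minus WT and -0.18 to -0.124 in Control minus WT, 0 to 3 members higher in Control, and 939 to 1073 genes higher and 983 to 1082 lower there. Uncalled differences changed sign, in CypD KO minus WT between -0.119 and 0.364 for Me3, -0.054 and 0.049 for Sucla2, -0.166 and 0.041 for Pcx, -0.349 and 0.019 for Aldh5a1 and -0.001 and 0.054 for Suclg1, and in Control minus WT between -0.069 and 0.44 for Pcx. A group left with 1 library was assumed to vary like the others. With the replicate number as a block, 12 members were called in CypD KO minus WT, 17 in CypD OE minus Control and 11 in Control minus WT, where Got2 was lost. The labels do not say that a number marks a shared culture or day, and deviations of same-numbered libraries correlated at 0.108, -0.00175 and -0.0186 across 13526 genes in the 3 comparisons. Except where a value or the alternative's construction shows it, the cause was not tested. Depth limits Ogdhl, Me3 and Gpt most.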
